A study of Mus musculus with 10 samples.

Results

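The cholesterol genes described here make cholesterol from acetyl-CoA, sense its level, and move, store, take up or export it. They were chosen from a list of 33 gene symbols, and a probe set belonged to a gene when the array's annotation gave that symbol. The rule took 67 probe sets, out of 45101 on the array, for 30 of the 33 genes, while Acat2, Soat1 and Soat2 were not analysed here. All 30 genes entered the tests, since no filter on low values was applied. On the brightest probe set of each gene no value on any array was under 6.27, against array medians of 5.42 to 5.50. Of the 67 probe sets, 8 had a mean below the array median. Liver RNA came from 10 male mice of the hybrid strain B6C3F1/Crl, bred from C57BL/6 males and C3H/He females, which carried no engineered allele per the labels. They arrived 29 to 32 days old, settled for 5 days and were randomised. The 5 treated animals had phenobarbital, a barbiturate that activates the hepatocyte's drug-sensing receptors, in their drinking water at 0.05% (w/v) for 28 days. The other 5 were controls, for which the labels give no agent. Each animal was hybridised to its own Affymetrix array, so n = 5 per group throughout, and the number of arrays limits the precision.

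Hepatocytes build cholesterol along a single route. Mevalonate enzymes make 5-carbon isoprenoid units, which are joined to farnesyl diphosphate and then to squalene, and squalene is closed to lanosterol and trimmed to cholesterol by the sterol enzymes. When sterol is scarce in the endoplasmic reticulum, Scap carries the membrane-bound factor Srebf2 to the Golgi, where it is cut, and its free part switches on synthesis genes; when sterol is plentiful, Insig1 or Insig2 holds Scap back. Surplus cholesterol is esterified for storage, passed to lipoproteins through Abca1, or pumped into bile by the paired half-transporters Abcg5 and Abcg8, while Scarb1 takes cholesterol up from high-density lipoprotein.

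RefSeq promoter entries on GRCm38.p6 matched 26 of the 33 symbols and 24 of the 30 measured genes; Fdft1, Fdps, Npc1, Scarb1, Sqle and Stard4 had none. Abcg5 and Abcg8, which were lower in treated livers, lie head to head. The 109 bases between their starts, at chr17:84683012-84683120 and read on the strand of Abcg8, are upstream of both genes at once. They are shown because Abcg5 and Abcg8 were the first 2 genes with an entry, in order of p, among those that differed in the test below. None of the differing genes with an entry held the sterol motif given in the next paragraph. Capitals mark AGATAA, the core motif of GATA factors, on either strand.
Abcg5 and Abcg8: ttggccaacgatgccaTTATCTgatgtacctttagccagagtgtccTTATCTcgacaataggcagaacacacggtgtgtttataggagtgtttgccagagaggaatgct
Both matches lie on the strand of Abcg5. The motif occurred at least once in 3.98% of all 32851 promoter windows over the 109 bases next to the start, and at least 2 times in 0.19%. The motif was chosen after seeing values and the length was that of this stretch, so these shares describe the letters only. A second start that the table lists for Abcg8 is not shown.

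In all members with an entry, 2 further letter patterns were searched on both strands in the 250 bases upstream of each start. The sterol regulatory element, written TCACNCCAC, is bound by Srebf2, and CCAAT is bound by its partner NF-Y. The sterol motif was found in 1.05% of all windows and in 1 member, Hmgcs1, and its looser form TCACNCNAC in 2.26% of all windows and also in Nsdhl. CCAAT was found in 33.85% of all windows and in 22 of 33 member windows. The 100 bases before the starts of Mvd (minus strand, chr8:122443423-122443522) and Lss (plus strand, chr10:76531505-76531604) are shown, with CCAAT or its reverse complement in capitals. Both are synthesis genes that were higher in treated livers and have an entry. Insig2, a sensing gene, was also higher and has an entry with CCAAT, and it is not shown. The 60 bases of Hmgcs1 (plus strand, chr13:119690189-119690248) hold the sterol motif, in capitals.
Mvd: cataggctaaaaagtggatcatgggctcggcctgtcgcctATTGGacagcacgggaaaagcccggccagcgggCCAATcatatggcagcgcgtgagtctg
Lss: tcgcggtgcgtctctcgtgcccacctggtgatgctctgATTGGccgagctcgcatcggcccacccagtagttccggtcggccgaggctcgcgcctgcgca
Hmgcs1: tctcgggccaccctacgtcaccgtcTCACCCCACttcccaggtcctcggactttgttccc
A match, or the lack of one, describes the letters of these windows only.

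The arrays themselves differed between the groups, and this touches every result that follows. Poly-A spike-ins, transcripts added to the RNA before labelling, averaged between 7.77 and 8.64 on 4 control arrays (replicates 1, 2, 3 and 5), 6.40 on that of control replicate 4, and between 5.76 and 6.58 on those of the treated animals. The 4 arrays at 7.77 or above and the 6 at 6.58 or below are called the high and low poly-A sets; no label says what they are. The high set held controls only. With the set as a block, a gene's difference is therefore the treated mean minus control replicate 4, and set and treatment cannot be told apart without that 1 animal. The 3' minus 5' difference of Gapdh, a measure of RNA integrity and labelling length, was -0.15 to -0.03 in controls and -0.28 to -0.21 with phenobarbital (exact permutation test, two-sided, p = 0.00794, or 0.0298 after adjustment over 5 array measures). Control replicate 4 was at -0.15, outside the treated range. Hybridisation spike-ins, the same difference of Actb, and 18S also differed (same test, adjusted p 0.0298 to 0.0317). On each of these control replicate 4 lay within the treated range. The tissue matched its label: 7 measured hepatocyte markers averaged 13.91 to 14.02 on the 10 arrays, with Alb near the top of the scale at 14.98 in controls. The extraction protocol covers kidney too, and of 5 kidney markers Umod and Slc12a1 averaged 3.44 and 3.85 in controls, below the lower quartile of the array values, while Aqp2 and Kap averaged 5.63 and 6.22, above the array medians. Control replicate 2 had the highest value of all 10 arrays for Umod (4.36), Slc12a1 (4.22) and Kap (7.76, where the next highest array had 6.13). With control replicate 2 left out, Sqle, Npc1, Abcg5, Abcg8 and Scarb1 still passed, and the calls of Mvd, Fdps, Lss and Insig2 were lost.

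Over all arrays, 4 genes that make cholesterol and 1 that senses it were higher in treated livers, and 4 that move or export it were lower. By limma over 18193 genes (Benjamini-Hochberg adjusted p under 0.05), 5 of 30 members rose, 16.7% of them against 9.02% of all genes, and 4 fell, 13.3% against 11.3% of all genes. The share that fell was near that of all genes. In synthesis, 4 of 18 genes rose (Mvd, Fdps, Sqle and Lss) and none fell. Of 4 sensing genes 1 rose, Insig2, and of 8 transport and export genes 4 fell, Npc1, Abcg5, Abcg8 and Scarb1. The median log2 difference was 0.09 over 7 mevalonate and isoprenoid genes, 0.04 over 11 squalene and sterol genes, 0.16 over 4 sensing genes and -0.32 over 8 transport and export genes, against 0.008 over all genes. The steps were compared by these counts and medians, with no test.

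**Figure D1:**
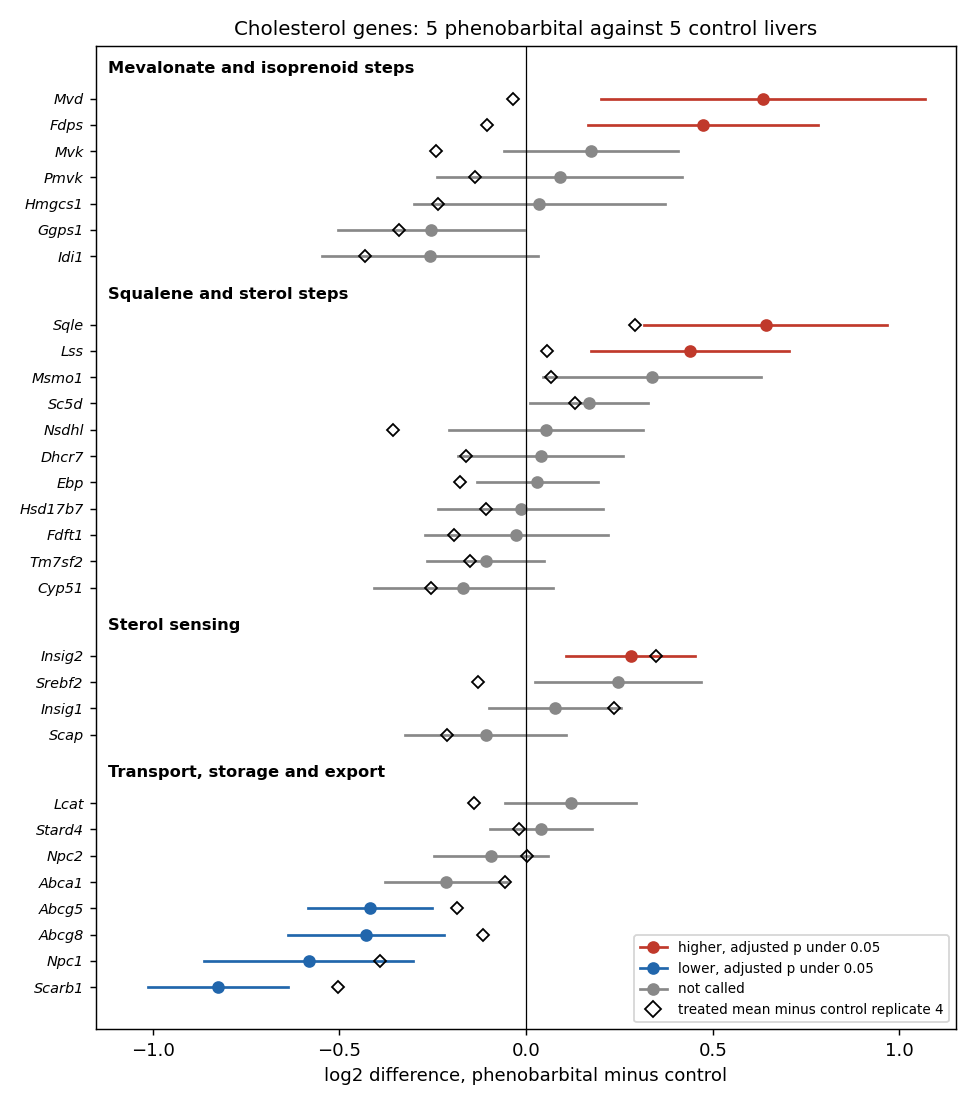
Log2 difference between treated and control livers for the 30 measured members, grouped by step. Filled points are the difference of the group means (n = 5 each) with their 95% interval, coloured by the limma call, and open diamonds are the treated mean minus control replicate 4. The 5 members called higher lie between 0.28 and 0.64 and the 4 called lower between -0.82 and -0.42, while the diamonds of Mvd and Fdps lie at -0.03 and -0.10.

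With the poly-A set as a block, none of the 30 members passed limma, against 0.786% of all genes, and 3 had an unadjusted p under 0.05, as 2425 of the 18193 genes did, so the members gave no larger share than all genes. Those 3 were Scarb1 (-0.50, adjusted p = 0.0526), Insig2 (0.35, adjusted p = 0.304) and Nsdhl (-0.36, adjusted p = 0.356). The block turned the median of the mevalonate genes to -0.24 and that of the sterol genes to -0.15, and left the median of the sensing genes at 0.05 and of the transport genes at -0.13. Of the 18 synthesis genes 12 were above 0 without the block and 4 with it. Of all 18193 genes 9390 were above 0 without the block and 7630 with it, and their median with it was -0.036. Of the 8 transport genes 6 were below 0 and 2 above it without the block, and 1 was above 0 with it. Of these 8 genes 5 kept their sign. Among all genes the called share that was higher was 44.4% as deposited, 60.0% with quantile normalisation and 58.8% with median centring. The members gave 5 rises and 4 falls, 6 and 4, and 5 and 4 in the same order.

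In the mevalonate and isoprenoid steps, 2 of 7 genes rose and none fell. Mvd, the decarboxylase that makes isopentenyl diphosphate, was 7.64, 7.34, 7.68, 8.57 and 8.28 in control replicates 1 to 5 and 8.17, 8.75, 8.69, 8.49 and 8.58 in phenobarbital replicates 1 to 5. Controls 1, 2 and 3 were the low ones, controls 4 and 5 lay within the treated range, and the groups overlapped. The mean went from 7.90 ± 0.51 to 8.54 ± 0.23 (SD, n = 5), 1.55-fold higher (log2 difference 0.63 ± 0.20 SE, limma adjusted p = 0.041). Fdps, which joins isoprenoid units to farnesyl diphosphate, was 12.40, 12.00, 12.19, 12.89 and 12.08 in controls and 12.74, 12.84, 12.91, 12.87 and 12.57 in treated animals. Only control replicate 4 lay in the treated range. Fdps was 1.39-fold higher (0.47 ± 0.14 SE, limma adjusted p = 0.0341). Against control replicate 4 alone, the only control in the low poly-A set, the differences were -0.03 for Mvd and -0.10 for Fdps. With 1 control animal there, these values cannot decide whether either rise holds within that set. Leaving out 1 animal at a time, Mvd kept its call only without control 4, control 5 or phenobarbital 1 and lost it in the other 7 cases (0.49 to 0.80 over all 10 cases, adjusted p up to 0.0961), and Fdps kept it only without control 4 or phenobarbital 5 and lost it in 8 (0.40 to 0.62 over all 10, adjusted p up to 0.085).

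The other mevalonate genes did not pass. Ggps1, which makes geranylgeranyl diphosphate for protein prenylation, was 6.92, 7.01, 6.80, 6.96 and 6.68 in controls and 7.01, 6.27, 6.66, 6.56 and 6.60 in treated animals. Phenobarbital replicate 1 shared the highest value with control replicate 2, and the other treated animals lay below every control (log2 difference -0.25 ± 0.12 SE, limma adjusted p = 0.137; -0.35 and 0.0284 without phenobarbital 1). Idi1, the isomerase of the isoprenoid units, averaged 11.97 ± 0.24 without and 11.71 ± 0.26 with phenobarbital (SD, n = 5; limma adjusted p = 0.189). The kinases Mvk and Pmvk, which act just before Mvd, differed by 0.17 and 0.09 (adjusted p = 0.269 and 0.707), and Mvk passed without control replicate 4 (0.28, adjusted p = 0.0206). Hmgcs1, which makes the HMG-CoA that enters the pathway, stood at 12.70 ± 0.29 and 12.73 ± 0.31 (SD, n = 5), and the 95% interval of its difference ran from -0.30 to 0.37. Neighbouring steps of the route thus gave values on both sides of 0.

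In the squalene and sterol steps, 2 of 11 genes rose and none fell. Sqle, the epoxidase that prepares squalene for ring closure and a rate-limiting step, was 9.72, 9.59, 10.19, 10.34 and 10.11 in controls and 10.80, 10.69, 10.92, 10.37 and 10.38 in treated animals. It was the 1 member whose treated values all lay above the controls, by a margin of 10.37 over 10.34; the groups were separated this way in 5.73% of all genes. Sqle was 1.56-fold higher (0.64 ± 0.15 SE, limma adjusted p = 0.0116), and it passed without any single animal (0.54 to 0.73, adjusted p up to 0.03). Within the low poly-A set the difference was 0.29 (adjusted p = 0.651). Lss, which closes the rings to lanosterol, was 9.27, 9.10, 9.06, 9.55 and 8.85 in controls and 9.64, 9.60, 9.77, 9.72 and 9.30 in treated animals. Control replicate 4 and phenobarbital replicate 5 crossed into the other group's range. Lss was 1.36-fold higher (0.44 ± 0.12 SE, limma adjusted p = 0.0249), with 0.06 within the low set. Its call was lost without control 2, 3 or 5 or phenobarbital 2, 3 or 4 (0.36 to 0.44, adjusted p 0.051 to 0.0603).

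The other squalene and sterol genes did not pass. Msmo1, which removes methyl groups from the sterol ring, was 11.71, 11.53, 12.08, 12.06 and 11.56 in controls and 12.38, 12.16, 12.28, 12.05 and 11.76 in treated animals, with phenobarbital replicates 4 and 5 inside the control range. Its difference of 0.34 ± 0.14 (SE) missed the threshold (limma adjusted p = 0.0935) and passed without control 4 (0.41, adjusted p = 0.0473) or phenobarbital 5 (0.43, 0.039). Sc5d, a desaturase near the end of the route, differed by 0.17 (adjusted p = 0.116; 0.22 and 0.0461 without control 1). Cyp51, the lanosterol demethylase, and Tm7sf2, a sterol reductase, were at -0.17 and -0.11 (adjusted p = 0.301 and 0.311). On the brightest probe set of each, the squalene synthase Fdft1 and the later enzymes Nsdhl, Hsd17b7, Ebp and Dhcr7 lay between -0.03 and 0.05. The widest of their 95% intervals was that of Nsdhl, from -0.21 to 0.31, and that of Dhcr7, the last reductase before cholesterol, ran from -0.18 to 0.26.

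**Figure D2:**
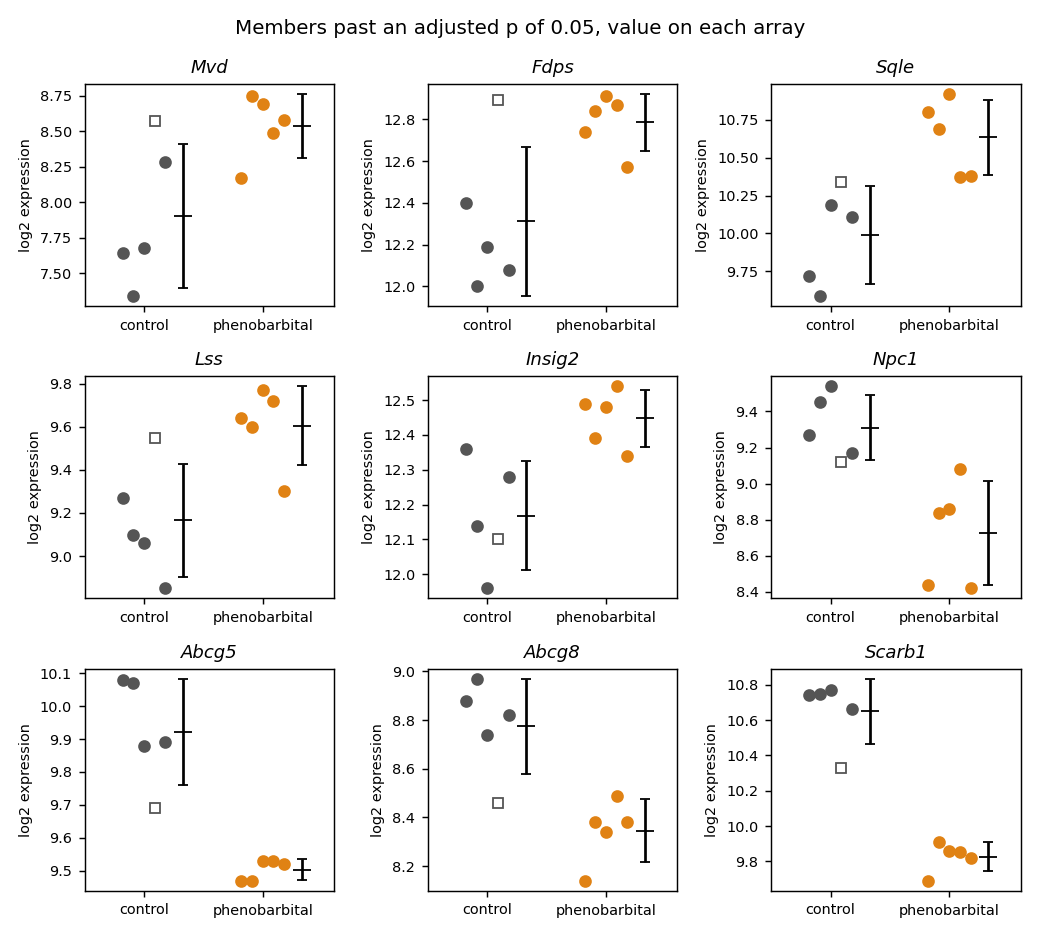
Log2 expression on each array for the 9 members past an adjusted p of 0.05, with the mean and SD of each group beside the points (n = 5); axes differ between panels and do not start at 0. The open square is control replicate 4, which is the highest control for Mvd, Fdps, Sqle and Lss and the lowest for Npc1, Abcg5, Abcg8 and Scarb1.

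Among the sensing genes Insig2 rose and the other 3 did not pass. Insig2, a membrane anchor that keeps Scap in the endoplasmic reticulum, was 12.36, 12.14, 11.96, 12.10 and 12.28 in controls and 12.49, 12.39, 12.48, 12.54 and 12.34 in treated animals. Only control replicate 1, at 12.36, reached above the lowest treated value. It was 1.21-fold higher (0.28 ± 0.08 SE, limma adjusted p = 0.0275) and stood 0.35 above control replicate 4, so its difference did not shrink within the low poly-A set, where it did not pass (adjusted p = 0.304). The call was lost without control 2 or 3 or phenobarbital 1, 3 or 4 (0.23 to 0.27, adjusted p up to 0.0663). Srebf2, the factor itself, was 7.98, 7.91, 8.09, 8.45 and 7.95 in controls and 8.26, 8.31, 8.26, 8.55 and 8.23 in treated animals. Replicate 4 was the highest in both groups, and the other controls lay below all treated animals. Its difference of 0.25 ± 0.10 (SE) missed the threshold (limma adjusted p = 0.107), and it passed without control 4 (0.34, adjusted p = 0.00902) and after quantile normalisation (0.32, adjusted p = 0.0479). Insig1 and Scap differed by 0.08 and -0.11 (adjusted p = 0.527 and 0.467). The arrays read transcript level, not the cut and active form of the Srebf2 protein.

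The 4 members that fell all belong to transport and export, and Scarb1 had the largest difference of the 30. Scarb1, the receptor that takes cholesterol up from high-density lipoprotein, was 10.74, 10.75, 10.77, 10.33 and 10.66 in controls and 9.69, 9.91, 9.86, 9.85 and 9.82 in treated animals. All treated values lay below all controls. Scarb1 was 1.77-fold lower (-0.82 ± 0.09 SE, limma adjusted p = 8.85e-05), passed without any single animal (-0.90 to -0.79), and gave -0.50 within the low poly-A set (adjusted p = 0.0526). Npc1, which releases cholesterol from lysosomes, was 9.27, 9.45, 9.54, 9.12 and 9.17 in controls and 8.44, 8.84, 8.86, 9.08 and 8.42 in treated animals. These groups did not overlap either, with 9.08 against 9.12 at the nearest. Npc1 fell by 0.58 on the log2 scale (SE 0.13, limma adjusted p = 0.00901; -0.39 within the low set). Treated values lay below all controls for Scarb1, Npc1 and Abcg5, and in 7.21% of all genes.

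The half-transporters that pump sterol into bile both fell. Abcg5 was 10.08, 10.07, 9.88, 9.69 and 9.89 in controls and 9.47, 9.47, 9.53, 9.53 and 9.52 in treated animals. The treated values lay close together, all below control replicate 4, the lowest control. Abcg5 was 1.34-fold lower (-0.42 ± 0.08 SE, 95% interval -0.58 to -0.25, limma adjusted p = 0.00357). Abcg8 was 8.88, 8.97, 8.74, 8.46 and 8.82 in controls and 8.14, 8.38, 8.34, 8.49 and 8.38 in treated animals, so that phenobarbital replicate 4 passed control replicate 4. It was 1.35-fold lower (-0.43 ± 0.10 SE, 95% interval -0.64 to -0.22, limma adjusted p = 0.00952). Within the low poly-A set the differences were -0.19 and -0.11. Npc1, Abcg5 and Abcg8 each passed without any single animal. Abca1, which loads cholesterol onto apolipoprotein A-I, was 11.90, 11.85, 11.98, 11.76 and 12.10 in controls and 11.76, 11.65, 11.70, 11.58 and 11.83 in treated animals. Its difference of -0.21 ± 0.08 (SE) missed the threshold (limma adjusted p = 0.0631; -0.25 and 0.028 without control 4). Abca1 passed with array weights (adjusted p = 0.031) and the replicate block (0.0419). A robust variance with trend (0.0316) and the fit over genes above the median level (0.0464) also gave a call. The mean of its probe sets did not pass (-0.10, adjusted p = 0.444). Nor did it pass with the spike-in mean as a covariate (-0.12, adjusted p = 0.755). Within the low poly-A set its difference was -0.06. Its other probe sets, tested singly, gave -0.10 and 0.01, the latter with a mean below the array median. Lcat, which esterifies cholesterol in plasma, the lysosomal carrier Npc2 and the cytosolic carrier Stard4 differed by 0.12, -0.09 and 0.04 (adjusted p = 0.312, 0.368 and 0.69). Another Stard4 probe set, at 9.63 in controls, gave -0.68 (limma on probe sets singly, adjusted p = 0.0636), and its last gave 0.12.

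**Figure D3:**
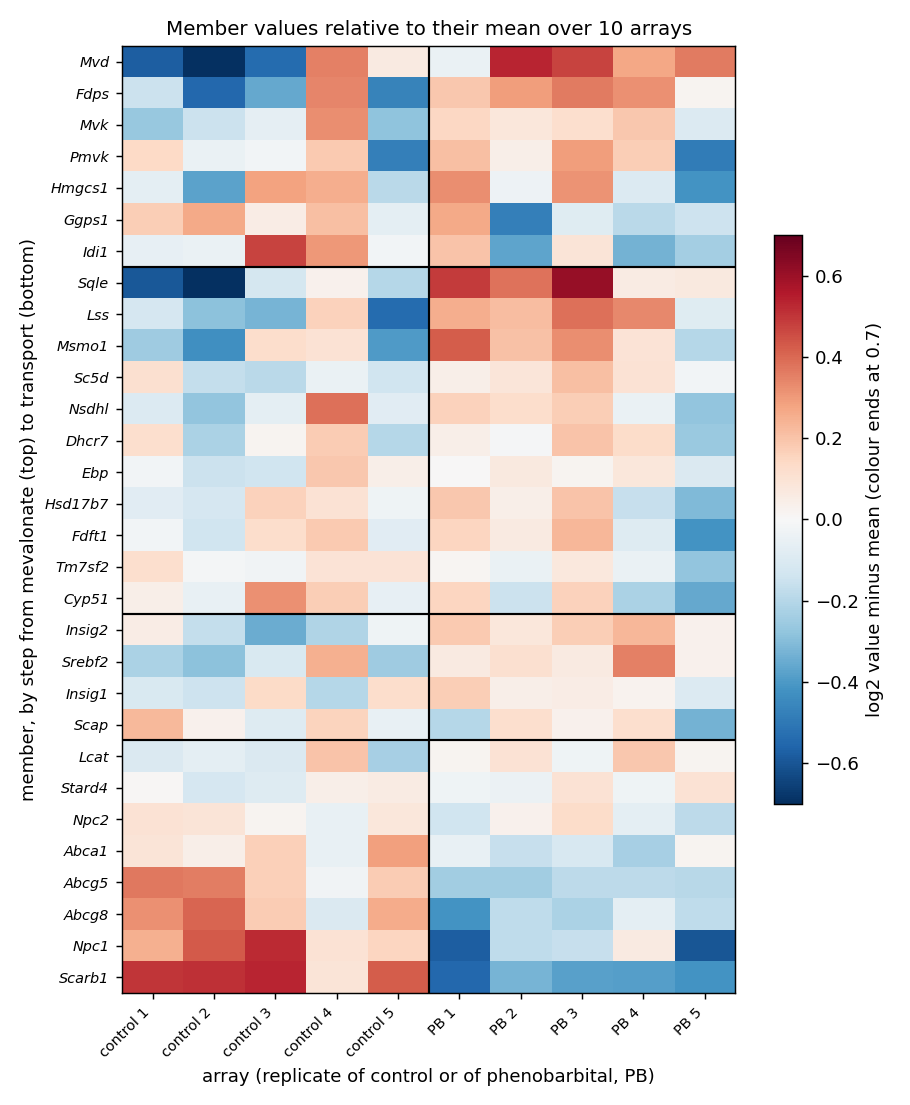
Log2 value of each measured member minus its mean over the 10 arrays, with arrays in columns and members in rows, steps divided by lines. The lower rows of the bottom block (Abcg5, Abcg8, Npc1 and Scarb1) are mostly red in controls and blue in treated animals, control replicate 4 is paler or blue there, and phenobarbital replicate 5 is bluer than the other treated arrays in most synthesis rows.

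Some animals stood high or low over many genes of a step, and such ranks were not counted over all genes. Taken per array as the median over a step of the value minus the gene's mean, the squalene and sterol genes stood between -0.17 and 0.16 in controls and between -0.26 and 0.20 in treated animals, so the step as a whole overlapped. The transport and export genes stood between 0.008 and 0.22 in controls and between -0.19 and -0.07 in treated animals. Phenobarbital replicate 5 had the lowest treated value in 14 of 18 synthesis genes and in all 4 sensing genes. Phenobarbital replicate 3 had the highest treated value in 11 of the 18 synthesis genes. Control replicate 4 had the highest control value in 10 of 18 synthesis genes and the lowest in 6 of 8 transport genes, and control replicate 2 the lowest in 10 of 18 synthesis genes. In the transport genes the control nearest to the treated animals, replicate 4, is also the control in the low poly-A set. In the mevalonate genes it stood at 0.30, above all treated arrays, and the part of the spike-in difference in these results was not tested.

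The probe sets of a gene did not always give the same value. Tested singly over 45037 probe sets, 9 of 67 member probe sets were called higher, against 7.7% of all, and 6 lower, against 11% of all, and no gene had calls in both directions. Insig2 and Mvd were called on all their probe sets, at 0.23 to 0.33 on 3 and at 0.53 and 0.63 on 2. Scarb1 was called on 2 probe sets (-0.82 and -0.73), both of the design type whose probes can match other transcripts. The third, designed for several transcripts of the gene, averaged 9.82 ± 0.09 without and 9.73 ± 0.21 with phenobarbital (SD, n = 5; log2 difference -0.09, limma adjusted p = 0.545). The mean of the 3 passed at -0.55. Lss was called on its brightest alone, of a design type that can match several transcripts, while its other 2 probe sets gave 0.02 and -0.10, and the call was lost with the mean of the 3 (0.12, adjusted p = 0.353). The mean of its 2 probe sets gave 0.26 for Fdps, which passed. The second Fdps probe set averaged 2.84 in controls and 2.88 with phenobarbital, below the array medians, and gave 0.04. Hsd17b7 was called higher on 1 that was not its brightest (0.35, adjusted p = 0.0229), and another gave -0.56 (adjusted p = 0.145). Fdft1 was called on none of its probe sets. They gave -0.03 on the brightest, 0.41 on the next (limma adjusted p = 0.0785), and -0.12 and 0.04 on the others. Ggps1 was called lower on a dim one (-0.75, adjusted p = 0.022), whose mean lay below the array median, and it passed with the mean of its probe sets (-0.34, adjusted p = 0.0245), so that the absence of falls in synthesis holds for the brightest probe sets only. Sqle, Npc1, Abcg5 and Abcg8 have a single probe set here.

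**Figure D4:**
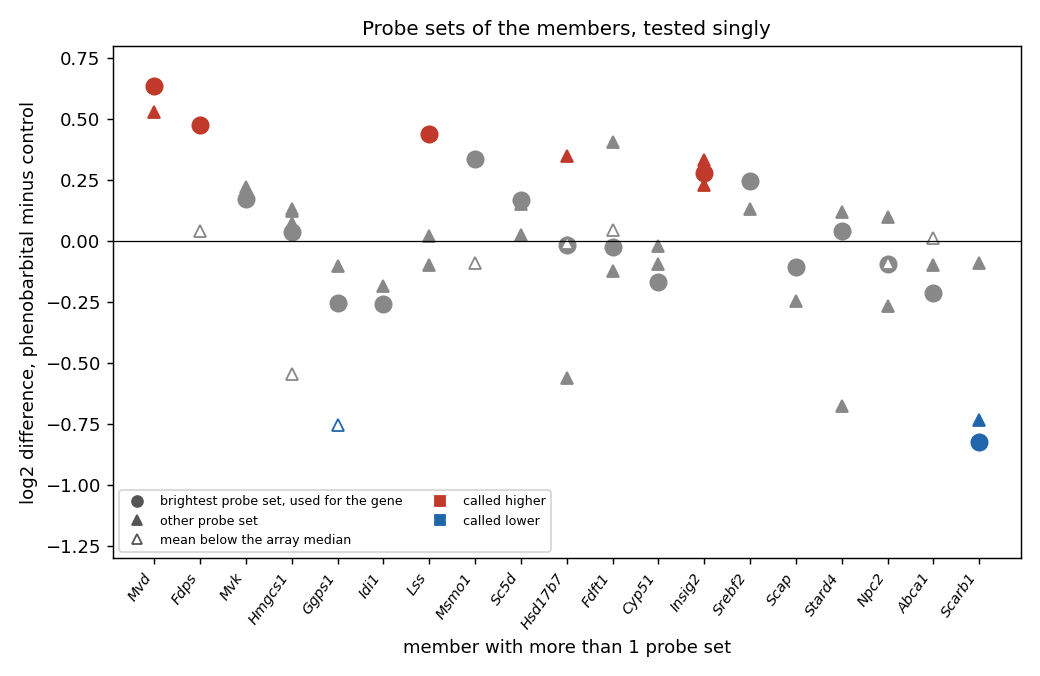
Log2 difference of every probe set of the 19 members with more than 1, each tested singly. Circles are the brightest probe set, which stands for the gene, triangles the others, open symbols have a mean below the array median, and colours give the limma call. Insig2 symbols lie together, while those of Scarb1 are split between -0.82 and -0.09 and those of Hsd17b7 between 0.35 and -0.56.

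Whole liver holds other cells that also express some of these genes, and a bulk level cannot tell fewer cells of a type from less RNA per cell. Of 6 endothelial markers 4 fell (Stab2, Clec4g, Kdr and Cdh5, -0.41 to -0.30), where 11.3% of all genes fell. Their list averaged 8.05 to 8.54 in controls and 7.79 to 8.23 in treated animals. Against control replicate 4 alone the 4 that fell were at -0.65 to -0.11. Of 6 stellate cell markers 4 fell (Lrat, Reln, Pdgfrb and Dcn, -0.86 to -0.43), with list averages of 8.23 to 8.38 and 7.75 to 8.14. Against control replicate 4 alone these 4 were at -0.66 to -0.50. Of 11 Kupffer cell and leukocyte markers 1 fell, Timd4 (-0.24), with averages of 7.30 to 7.67 and 7.30 to 7.60. Of 7 hepatocyte markers 1 fell, Apob (-0.20), and of 4 bile duct markers 1 rose, Epcam (0.54), at 5.70 in controls. The part of cell makeup in the falls of Scarb1, Npc1, Abcg5 and Abcg8 was not tested.

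Of 31 further sterol genes measured, listed for their known roles, 2 rose and 7 fell, against 9.02% and 11.3% of all genes, and their median difference was -0.06. None of these 9 passed with the poly-A set as a block (adjusted p 0.0691 to 0.726). Acly, which supplies acetyl-CoA for synthesis, rose by 0.39 (limma adjusted p = 0.0305), and Nceh1, which hydrolyses stored cholesteryl ester, rose by 0.44 (adjusted p = 0.0175) and stood 0.77 above control replicate 4. Mylip, a ubiquitin ligase that sends lipoprotein receptors for degradation, was 8.37, 8.79, 8.55, 8.44 and 8.51 in controls and 7.88, 7.87, 8.08, 7.35 and 7.91 in treated animals. These groups did not overlap (-0.71 ± 0.12 SE, limma adjusted p = 0.00258; -0.62 within the low set). Pltp, which transfers phospholipid between lipoproteins, was at -0.66 (adjusted p = 0.0166), and -0.26 within the low set. Cyp7b1, an oxysterol hydroxylase of the alternative bile acid route, was at -0.50 (adjusted p = 0.0371). The 3 genes of prenyl use that fell were Pdss2 (-0.30), Fnta (-0.23) and Pggt1b (-0.22), of which the first takes part in ubiquinone side chain synthesis and the others are subunits of prenyl transferases, and the seventh fall was Apob. Srebf1, the lipogenic relative of Srebf2, differed by -0.06 ± 0.18 (SE, adjusted p = 0.852), and Nr1h3, the liver X receptor that senses oxysterols, by 0.10 (adjusted p = 0.354).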

How the data were processed

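Total RNA from whole liver was labelled with biotin through a 3' in vitro transcription kit and hybridised to Affymetrix arrays, per the labels' protocols. The values the authors deposited, 1 per probe set and array, are on a log2 scale, as read from their range; the submitters' processing notes name GCOS, and how the values were normalised is not stated there. Values were used as deposited. Each of 18193 genes was represented by its single-symbol probe set with the highest mean, among 34945 such probe sets; 932 with several symbols were left out.

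Groups were compared with limma 3.58.1 in R 4.3.3 (lmFit, eBayes, two-sided, Benjamini-Hochberg over all genes). Array measures had an exact permutation test. The fit was tested on simulated data. The alternatives are in the closing section. The members and lists were chosen with earlier results of these data known; named genes were the called or non-overlapping members and up to 4 others a step by p, with values per animal for the called ones and for Ggps1, Msmo1, Srebf2 and Abca1, chosen after seeing values, and the motifs AGATAA and CCAAT and the windows of Mvd, Lss and Hmgcs1 were added after seeing values. Protein sequences were not used here. Figures used matplotlib 3.10.9 in Python 3.11.15.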

Additional observations from a re-analysis of the deposited data

Results flagged for a closer look

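Scarb1 in control replicate 4, at 10.33, lay below the other controls, which were between 10.66 and 10.77, and Srebf2 in phenobarbital replicate 4, at 8.55, lay above the other treated animals, between 8.23 and 8.31. In each case the gap to the nearest animal was 0.75 of the group's range, above Dixon's 95% limit for 5 values. Chance alone passes this limit in about 1 of 20 groups, and 60 groups (30 genes in 2 groups) were examined. Scarb1 kept its call without control replicate 4 (-0.90), which is the only control in the low poly-A set. Srebf2 was not called with phenobarbital replicate 4 or without it (0.19).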

How the results depend on the processing

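No label pairs the animals by replicate number. Deviations of same-numbered animals correlated between -0.02 and 0.12, and 4 of 10 animals matched best with their own number. These values do not settle whether the numbers mark a pairing. With the replicate block 11 members passed (6 higher, 5 lower) and 3664 genes in all. Without 1 animal, 1 to 8 members were higher, 4 or 5 lower, and 2431 (without phenobarbital 2) to 4610 (without control 4) genes were called. Members called higher were 3 with trend and robust variance, where Mvd and Fdps lost their calls (adjusted p = 0.0634 and 0.0552) and Abca1 gained one (0.0316). With the poly-A set as a block (143 genes called) or the spike-in mean as a covariate (129), 0 members were higher and 0 lower (limma; 3 and 1 at an unadjusted p under 0.05, against 2425 of all 18193 genes with the block), and 0 member probe sets passed with the block (8 unadjusted). Medians moved by more than the spread between animals as follows, block then covariate: mevalonate -0.24 and -0.11, sensing 0.054 and 0.081, transport -0.13 and -0.16, sterol -0.15 with the block; transport was -0.21 on single-transcript probe sets. The block kept the sign of 13455 of all 18193 genes. It turned the sign of 12 of 30 members. They were, with block then covariate values, Mvd (-0.034, -0.16), Mvk (-0.24, -0.11), Srebf2 (-0.13, -0.084), Lcat (-0.14, -0.10), Npc2 (0.004, 0.032) and Stard4 (-0.020, -0.052), and, with the block, Fdps (-0.10), Pmvk (-0.14), Hmgcs1 (-0.24), Nsdhl (-0.36), Ebp (-0.18) and Dhcr7 (-0.16). Pmvk ranged from -0.019 (without control 5) to 0.22. Single-transcript probe sets exist for 28 of 30 members, not for Scarb1. On them Lss was 0.02, Msmo1 was -0.09 and Npc2 0.10. That of Msmo1 averaged 3.59 in controls, below the array medians. With the mean of probe sets Stard4 was -0.17 and Lss lost its call (0.12). Ggps1 gained a call as lower under both (-0.75, adjusted p = 0.018, and -0.34, 0.0245), and Hsd17b7 as higher on single-transcript probe sets. The causes were not tested. Quantile normalisation, median centring and array weights kept all 9 calls; Srebf2 gained one with quantile normalisation, and Srebf2, Abca1 and Msmo1 with array weights.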
